A study of Homo sapiens with 8 samples.

Results

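A group of 10 mRNAs of the translation machinery was examined in an RNA structure probing experiment on HEK293T cells, an established human embryonic kidney line. They comprise the mRNAs of 2 elongation factors (EEF1A1 and EEF2) and 8 ribosomal proteins (RPL3, RPL4, RPL5, RPL7A, RPL8, RPLP0, RPS2 and RPS6). They were chosen by transcript identifier as abundant, highly translated mRNAs, by a rule that uses no measured value, although earlier results of these data were known when the list was drawn up, and all 10 were present among the 38314 transcripts listed in both tables. The identifiers were paired with gene symbols by the list that named them, since the tables hold identifiers alone. The study compared control cells, labelled WT, with TDP-43 knockdown cells of the same line. The agent and the degree of the knockdown were not given in the sources used here. Cells of each kind were treated with 100 mM NAI, which reacts with the ribose of unconstrained nucleotides and leaves a mark at which reverse transcription stops, or with 5% DMSO as background, for 15 min at 37 °C. The 8 libraries formed 4 groups of 2 replicates.

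The values are 1 combined summary per transcript and condition: the average, the maximum and the standard deviation of reactivity along the transcript, and the Gini index. Reactivity is a score per nucleotide on a scale that is not stated. The Gini index is 0 where reactivity is spread evenly over the positions and approaches 1 where a few positions carry all of it. The column headers call these summaries combined, which was taken to mean merged replicates. The knockdown columns carry the prefix kd1, which is not explained, so whether both replicates, the DMSO background or 1 of several knockdowns lie behind them could not be checked. With 1 value per condition no value has an error, the spread between replicates behind a difference is not known, and there is no test and no p-value. Read depth is unknown.

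Ribosomal proteins assemble with ribosomal RNA into the 2 ribosomal subunits, and elongation factors drive the cycle by which the ribosome adds amino acids. Their mRNAs belong to the 5′ TOP class, which begins with a cytidine followed by an unbroken run of pyrimidines, and the translation of this class is switched through mTOR signalling and the cap-binding protein LARP1. TDP-43 is an RNA-binding protein of splicing and mRNA metabolism that prefers UG-rich RNA. Per the series title, the study asked about its contact with G-quadruplexes, which are stacked folds formed by guanine-rich stretches of RNA, and about mRNA stability and translation.

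The annotated starts of 7 of the 10 genes are shown because the pyrimidine run at the start is the feature that defines the class. Each sequence is from RefSeq on GRCh38.p14, 5′ to 3′ on the transcribed strand, with 10 bases before the annotated start and 20 from it. Capitals mark the run of C and T counted from the start, or, in RPL4, the first such run behind it. C or T before the start, as in RPL7A, was not counted.
EEF1A1 (chr6:73521013-73521042, minus strand): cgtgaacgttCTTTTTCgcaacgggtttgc
EEF2 (chr19:3985444-3985473, minus strand): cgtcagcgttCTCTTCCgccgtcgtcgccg
RPL3 (chr22:39319604-39319633, minus strand): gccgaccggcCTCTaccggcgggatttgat
RPL4 (chr15:66504836-66504865, minus strand): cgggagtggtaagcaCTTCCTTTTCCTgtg
RPL7A (chr9:133348208-133348237, plus strand): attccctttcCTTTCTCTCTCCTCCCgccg
RPLP0 (chr12:120201092-120201121, minus strand): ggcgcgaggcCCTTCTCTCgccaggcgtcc
RPS6 (chr9:19380217-19380246, minus strand): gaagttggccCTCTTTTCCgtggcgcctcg
A start with C and then at least 4 letters that are each C or T, read on the transcribed strand alone, was found in 5 of these 7, against 1429 of 35116 RefSeq starts (4.07%). Counted from the start, the run was 16 bases long in RPL7A, 9 in RPLP0 and RPS6, and 7 in EEF1A1 and EEF2. It was 4 bases long in RPL3. In RPL4 the annotated start is an A, and a run of 12 bases opened 5 bases behind it. RefSeq starts stand for genes, and which start the probed cells used was not measured. Entries for RPL5, RPL8 and RPS2 were not used here.

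In TDP-43 knockdown cells all 10 mRNAs had a higher average reactivity and a lower Gini index than in control cells, that is, more reactivity spread more evenly along the mRNA. Average reactivity was between 1.55-fold (RPS2) and 1.97-fold (RPL3) that of control, with a median of 1.79-fold. All 10 were at least 1.5-fold higher, a limit not set in advance and close to the lowest ratio, against 15.1% of all transcripts, and all 10 were higher by any amount, against 49.5%. The Gini index was lower in all 10, against 36.2% of all transcripts. These shares are over the whole table, and transcripts with like control averages are described below. A higher average together with a lower Gini index was the pattern of 30.9% of all transcripts, and 14.4% had it with at least 1.5-fold. The median transcript of the whole table had a ratio of 0.994 and a Gini difference of 0.0072, against -0.113 for the median of the 10 mRNAs. None of the 10 reached 2-fold. No transcript of the 10 stood at the ceiling of 7 that both tables share.

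**Figure D1:**
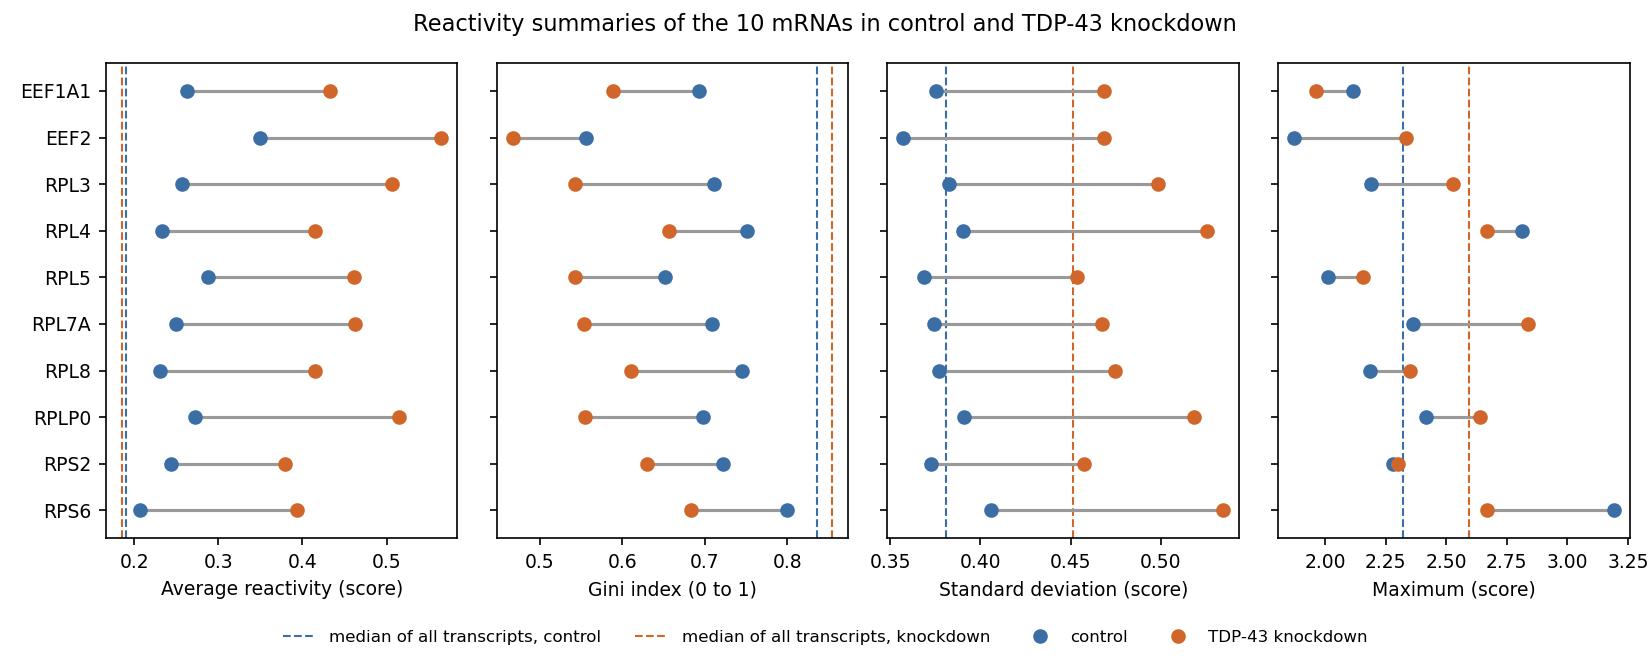
Average reactivity, Gini index, standard deviation and maximum of reactivity (x axes, scores without a stated unit except the Gini index, which runs from 0 to 1) for the 10 mRNAs in control (blue) and TDP-43 knockdown (orange), 1 combined value each without error. Dashed lines are the medians of all 38314 transcripts. Averages and standard deviations lie to the right of control in all 10, Gini indices lie to the left in all 10, and maxima go both ways.

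Of the elongation factor mRNAs, EEF2 was the most evenly reactive of the 10, and both had smaller ratios than the ribosomal protein mRNAs other than RPL5 and RPS2. EEF2 (ENST00000309311.7), whose protein moves the ribosome along the mRNA by translocation, averaged 0.349 in control cells and 0.565 in knockdown cells, a ratio of 1.62. It had the highest average of the 10 in both conditions and stood at place 698 from the top of all transcripts in control and 300 in knockdown. Its Gini index was the lowest of the 10 in each condition, at 0.556 without and 0.467 with the knockdown. EEF1A1 (ENST00000309268.11), whose protein delivers aminoacyl-tRNA to the ribosome, averaged 0.262 in control cells and 0.432 in knockdown cells, a ratio of 1.65. Its Gini index was 0.693 and 0.589. The maximum of EEF1A1 was 2.11 in control and 1.97 in knockdown, and that of EEF2 was 1.87 and 2.34. The highest single position was lower in knockdown in one factor and higher in the other, while both averages were higher.

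Among the 5 large subunit mRNAs outside the stalk, RPL3 had the largest ratio of average reactivity and RPL5 the smallest. RPL3 (ENST00000216146.9) encodes a protein that reaches towards the peptidyl transferase centre. Its average was 0.257 in control and 0.507 in knockdown, a ratio of 1.97 at place 406 from the top of all ratios. Its Gini index was 0.711 and 0.543, a difference of -0.168 that was the 285th most negative in the table. RPL7A (ENST00000323345.11), a further large subunit protein, followed with an average of 0.250 and 0.462, a ratio of 1.85, and a Gini index of 0.709 and 0.554. Among all transcripts the average of RPL3 stood at percentile 87.6 in control and 97.0 in knockdown, and that of RPL7A at 85.8 and 93.7.

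RPL8 (ENST00000262584.7), which lies near the peptidyl transferase centre, averaged 0.231 in control cells and 0.415 in knockdown cells, a ratio of 1.80, with a Gini index of 0.745 and 0.611. RPL4 (ENST00000307961.11), which lines the peptide exit tunnel, had nearly the same averages, 0.233 and 0.414, with a ratio of 1.78. The Gini index of RPL4 was 0.751 and 0.657, so its difference of -0.0941 was smaller than the -0.134 of RPL8 at a like difference in average. RPL5 (ENST00000370321.8), which joins the large subunit as part of the 5S ribonucleoprotein, started higher, at 0.288, and reached 0.461, a ratio of 1.60. Its Gini index was 0.652 and 0.543. Its place among all transcripts was the 92.8th percentile in control and the 93.7th in knockdown.

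RPLP0 (ENST00000392514.9) encodes the base of the ribosomal stalk, which recruits elongation factors. Its average was 0.273 in control and 0.515 in knockdown, a ratio of 1.89, and its Gini index was 0.698 and 0.555. In knockdown it had the second highest average of the 10, at place 963 from the top of all transcripts, after place 3560 in control.

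The 2 small subunit mRNAs had the smallest and the second largest ratio of the 10. RPS2 (ENST00000343262.9), a protein near the mRNA entry channel, averaged 0.244 in control cells and 0.379 in knockdown cells, a ratio of 1.55, and a Gini index of 0.722 and 0.630. RPS6 (ENST00000380394.9), the small subunit protein phosphorylated by S6 kinases, had the lowest control average of the 10, at 0.207, and 0.394 in knockdown, a ratio of 1.90. Its Gini index was 0.800 and 0.683, the highest of the 10 in each condition. RPS6 differed most in its place among all transcripts, the 60.2nd percentile of average reactivity in control and the 86.4th in knockdown. The shift in percentile was above 0 in all 10, against 48.4% of all transcripts, and lay between 0.872 in RPL5 and 26.2 in RPS6, with a median of 7.33.

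**Figure D2:**
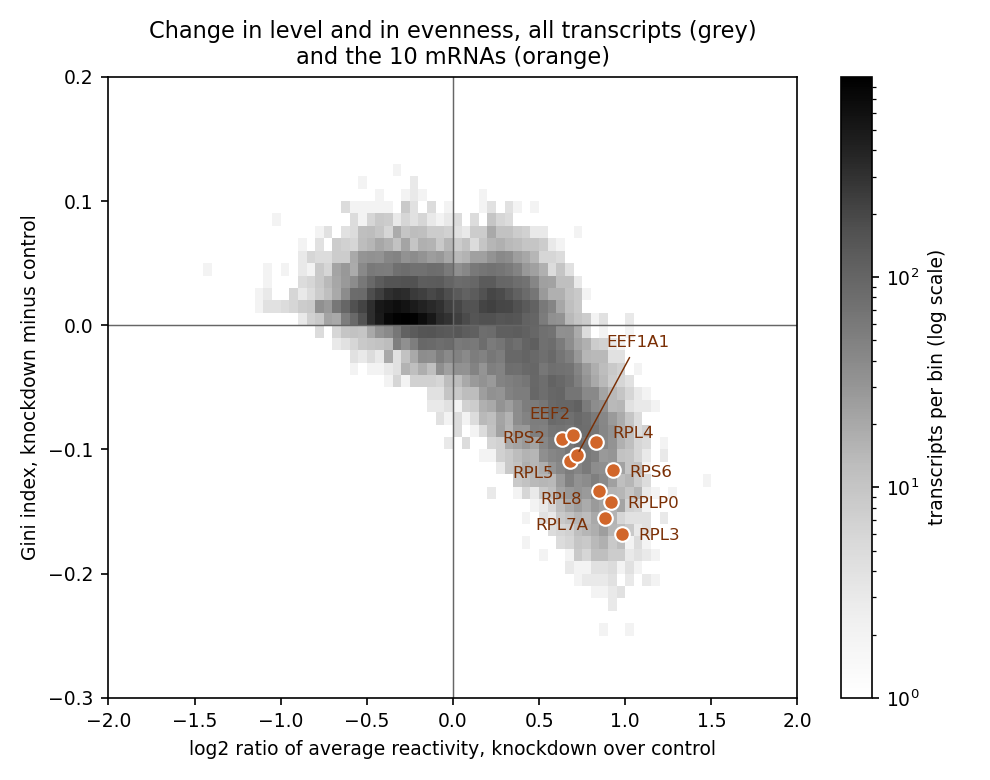
Log2 ratio of average reactivity, knockdown over control (x axis), against the Gini index of knockdown minus control (y axis), for all transcripts (grey, number per bin on a log scale, 2 transcripts outside the axes) and the 10 mRNAs (orange). The 10 mRNAs lie together at log2 ratios of 0.64 to 0.98 and Gini differences of -0.168 to -0.0887, in the lower right arm of the cloud.

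The spread of the 10 mRNAs was narrow beside that of the whole table. Their log2 ratios of average reactivity had an SD across transcripts of 0.12, against 0.43 for all transcripts. The order of the mRNAs was partly kept: averages in control and knockdown gave a Pearson r of 0.825 and a rank correlation (Spearman rho) of 0.782 over the 10 mRNAs. For the Gini index r was 0.906 and rho 0.818. Over all transcripts r was 0.858 and rho 0.860 for the average, and 0.947 and 0.971 for the Gini index. For the average and the Gini index the order was thus kept no better in the 10 mRNAs than in the whole table. For the standard deviation it was kept better, with r of 0.890 and rho of 0.867 against 0.851 and 0.442 over all transcripts. For the maximum it was kept less well, with r of 0.615 and rho of 0.770 against 0.929 and 0.862. mRNAs with a larger ratio of averages had a more negative Gini difference, with r of -0.797 and rho of -0.806. All transcripts shared this relation, with r of -0.672 and rho of -0.567. These are descriptions over points that share libraries and scaling, and both measures are computed from the same positions.

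The highest single position did not follow the average. The maximum was higher in knockdown in 7 of the 10, against 60.3% of all transcripts, and lower in EEF1A1, RPL4 and RPS6. Its ratio lay between 0.836 in RPS6, from 3.19 in control to 2.67 in knockdown, and 1.25 in EEF2. RPL7A had 2.37 in control and 2.84 in knockdown, RPL3 2.19 and 2.53, RPLP0 2.42 and 2.64, RPL8 2.19 and 2.35, and RPL5 2.01 and 2.16. RPS2 had 2.28 in control and was higher by 0.022 in knockdown, and RPL4 had 2.81 and 2.67. With the medians of both tables set equal, the maximum was higher in 3 of the 10, namely EEF2, RPL3 and RPL7A, against 39.9% of all transcripts. The direction of RPL5, RPL8, RPLP0 and RPS2 turned under this scaling.

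Set against the average of the same mRNA, the maximum was lower in knockdown in all 10, against 40.1% of all transcripts. This quotient does not depend on the scale of a table. That it was lower in all 10 follows from the ratios above, at most 1.25 for the maximum and at least 1.55 for the average. It is no separate evidence. RPS6 had a maximum 15.4 times its average in control and 6.78 times in knockdown, the 61st lowest ratio of the quotient in the table. RPL4 followed, with 12.1 and 6.44 times. EEF2 differed least, with 5.37 and 4.13 times. The median over the 10 mRNAs was 9.10 times in control and 5.40 times in knockdown, whereas that of all transcripts was 12.9 and 14.1 times.

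The standard deviation along the mRNA was higher in knockdown in all 10, against 55.1% of all transcripts, but by less than the average. Its ratio lay between 1.23 in RPS2 and 1.35 in RPL4. With the medians of both tables set equal it was still above 1 in all 10, against 34.4% of all transcripts, but smaller, between 1.04 in RPS2 and 1.14 in RPL4. EEF2 had 0.357 in control, at the 5.50th percentile of all transcripts, and 0.468 in knockdown, at the 55.9th. RPS6 had the highest values of the 10, with 0.406 and 0.534. The coefficient of variation, which is the standard deviation over the average and does not depend on scale, was lower in all 10, against 36.4% of all transcripts. It lay between 1.02 (EEF2) and 1.96 (RPS6) in control and between 0.829 (EEF2) and 1.36 (RPS6) in knockdown. That it was lower in all 10 follows from the ratios above, at most 1.35 for the standard deviation and at least 1.55 for the average. It is no separate evidence.

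The number of positions behind each value was recovered from the digits of the averages and Gini indices, and it ran from 867 in RPL7A and 925 in RPS2 to 3138 in EEF2 and 3492 in EEF1A1. From the Gini index and the standard deviation follows the smallest share of positions that must have carried any reactivity. This bound was higher in knockdown in all 10, by 10.5 to 19.8 percentage points, against 36.4% of all transcripts. It restates the Gini index and the coefficient of variation in numbers of positions and is no separate evidence. In EEF2 at least 1533 of 3138 positions were reactive in control and at least 1861 in knockdown. In RPL3 it was at least 396 and 649 of 1276 positions, and in RPS6 at least 279 and 475 of 1349. The median bound was 30.9% of positions in control and 47.7% in knockdown over the 10 mRNAs, against 17.7% and 15.8% over all transcripts. Being lower bounds, these do not give the number of reactive positions itself, nor which positions they were.

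The 10 mRNAs already had high averages in control, between the 60.2nd and the 98.2nd percentile, and the ratio varied with the control average over the table. Across all 38314 transcripts the control average and the log2 ratio correlated with a Spearman rho of 0.549, while over the 10 mRNAs the rho was -0.333. The relation was not steady at the top, since transcripts with a control average within 5% of that of RPLP0 had a median ratio of 1.54 and those like EEF2, at a higher average, 1.39. Each mRNA was therefore also placed among the transcripts within 5% of its own control average, a comparison chosen after the data were seen. The median ratio of such transcripts was 1.40 in the median over the 10 sets, and a median of 41.2% of them were at least 1.5-fold higher. Among them the ratios of the 10 mRNAs lay between the 65.1st and the 98.7th percentile, with a median of 89.7. With the number of positions also between a 2-fold lower and a 2-fold higher value, 327 to 3059 transcripts were left in each set, of which a median of 46.7% were at least 1.5-fold higher. There the percentiles ran from 56.6 to 98.6.

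This placing divided the 10 mRNAs. RPL5 and RPS2 lay near the middle of the transcripts like them in size and control average, at percentiles 56.6 and 58.9, with set medians of 1.57 and 1.46 beside their own ratios of 1.60 and 1.55. EEF1A1 lay at percentile 77.3. The other 7 lay at 87.5 or above. RPS6 was the most distant, at percentile 98.6, since transcripts like it had a median ratio of 1.02 and 14.2% of them were at least 1.5-fold higher. RPL3 lay at 94.9 and EEF2 at 92.0. The Gini differences of all 10 lay below the middle of the same sets, from percentile 1.53 in EEF2 and 2.15 in RPL3 to 32.3 in RPS2. The median Gini difference of these sets lay between -0.0659 and 0.0046, with a median of -0.0587, and was above 0 only for RPS6. Their median ratios lay between 1.02 and 1.61. A lower Gini index was thus common among such transcripts, apart from those like RPS6, and so was a higher average. Those counts of 10 should not be read against 36.2% and 49.5% alone. The count of 10 mRNAs at least 1.5-fold higher should likewise be read beside 46.7% as well as 15.1%. The part of control level in the result was not tested further.

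**Figure D3:**
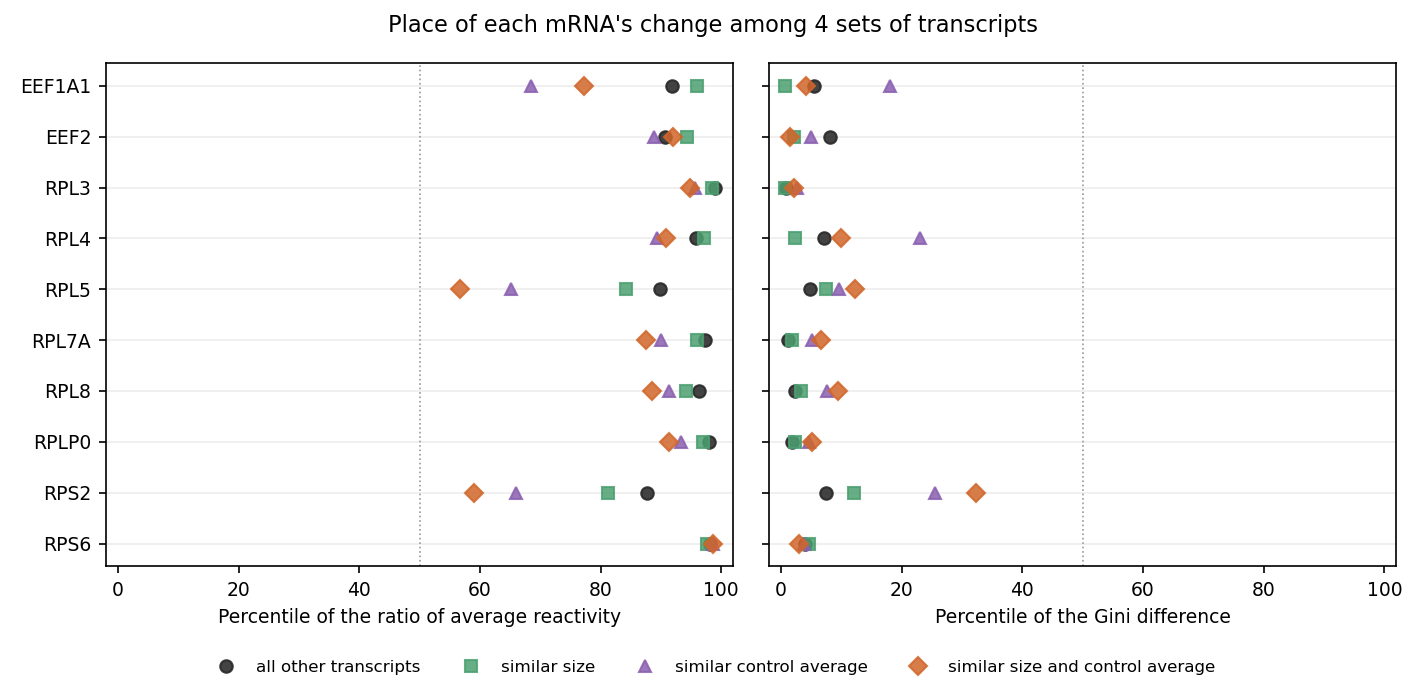
Percentile of each mRNA's ratio of average reactivity (left) and of its Gini difference (right) among all other transcripts, those of similar size, those of similar control average, and those similar in both (x axes, 0 to 100, dotted line at 50). All 10 ratios lie above 50 and all 10 Gini differences below it in each set, with RPL5 (56.6) and RPS2 (58.9) closest to 50 in the narrowest set of the left panel.

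The likeness of the mRNAs to each other differed from member to member. Likeness was measured as the distance over 8 values, the 4 measures in both conditions as normal scores of their ranks. RPL3 was the 3rd nearest of all transcripts to RPLP0, and RPLP0 the 10th nearest to RPL3. RPL3 was the 37th nearest to RPL7A and RPL4 the 63rd nearest to RPS6. RPL8 was the 110th nearest to RPS2, and RPS2 the 128th nearest to RPL8. In 9 of the 10 at least 1 other of the group lay among the nearest 383 transcripts, 1% of the table, and RPL7A had 3 there. EEF1A1 and RPL5 entered this count only through each other, at places 379 and 325, near its limit. The same count for other sets of 10 transcripts was not computed, so how unusual it is cannot be said. The distance also uses the same averages and Gini indices as the results above and is no separate evidence. The exception was EEF2, for which the nearest of the other 9 was RPL5, at place 1461. The farthest of the group from each mRNA lay between place 8430, for RPLP0, and place 32448, for RPS6. The closest transcript of all to RPL3 was ENST00000401609.5, at a distance of 0.0785, and its gene is not given by the tables. Transcripts of 1 gene share reads, so near neighbours can be isoforms. Ribosomal protein and elongation factor genes also have many processed pseudogenes, and how reads that match several places were assigned is not given in the sources used here, which makes the values of these mRNAs uncertain to that degree.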

How the data were processed

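Per the labels' protocols, poly(A) RNA of probed cells was fragmented to about 300 nt and reverse transcribed in a lithium buffer. Cutadapt 1.15 and Bowtie2 2.3.3.1 were used with hg38, per the submitters' processing notes. How stops became reactivities and how these were scaled was not given in the sources used here, nor was a coverage filter. Per the file headers, the authors deposited for each transcript the maximum, average and standard deviation of reactivity, a score, and the Gini index, a fraction. The word combined in the headers was taken to mean merged replicates, and the prefix of the knockdown columns is not explained.

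The 4 measures were compared per transcript as deposited, with ratios, differences and ranks among all 38314 transcripts. A percentile is the share of transcripts below a value plus 50% of those equal to it. Positions are the smallest number that makes both averages whole thousandths and fits both Gini indices. The number was exact in 97.0% of 300 simulated transcripts, which were built from values in thousandths with the same Gini formula. The simulation thus checks the calculation and not whether the deposited values were made in this way. The bound on reactive positions is the larger of 1 minus the Gini index and the squared average over the sum of squared average and variance. All 10 mRNAs are named. The mRNAs and alternatives were chosen with earlier results of these data known. Lists of further ribosomal protein and 5′ TOP genes were not analysed here, since the gene table used holds no transcript identifiers of this kind. Start sequences were matched by symbol for 7 of 10 genes. Computation was done in Python 3.11.15 with scipy 1.17.1, pandas 2.3.3 and numpy 2.4.6, and plots in matplotlib 3.10.9.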

Additional observations from a re-analysis of the deposited data

How the results depend on the processing

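The counts of mRNAs with a higher average (10), a higher Gini index (0), a higher standard deviation (10) and at least 1.5-fold higher average (10) were the same with each condition divided by its median, without transcripts at the ceiling and without the lowest 25% by level, and were 8, 0, 8 and 8 of the 8 ribosomal protein mRNAs alone. None of the 10 stood at the ceiling or in the lowest 25%, so these filters removed none of them and could not change the counts. Division by the median could not change the counts of the average and the Gini index either, as set out below. The count of higher maxima, 7 of 10, became 3 with division by the median and 3 for differences over 10% only; it was 6 or 7 of 9 with each mRNA left out in turn. At 2-fold in place of 1.5-fold, 0 of 10 were higher; both limits were chosen after seeing the data. The median log2 ratio of 0.84 became 0.87 with division by the median, 0.87 for ribosomal protein mRNAs alone, 0.72 with a pseudocount of 0.05, and 0.83 to 0.85 with each mRNA left out. The median Gini difference of -0.113 became -0.126 and -0.125 with the first 2 of these and -0.117 to -0.109 with each mRNA left out. The -0.126 arose because the Gini index itself was divided by its table median. Dividing the reactivities of a condition by a constant would leave every Gini index as it was. The change to -0.126 therefore does not show how scaling of reactivity affects the result. The median percentile shift of 7.33 became 8.40 without the ceiling, 9.78 without low values, 8.65 for ribosomal protein mRNAs alone, 8.02 among transcripts of similar size, 7.34 with identical transcripts counted once, and 6.78 to 7.89 with each mRNA left out. Of 20 values for single mRNAs under division by the median, 10 of the average and 10 of the Gini index, 0 changed direction. None could have done so. The table median of the average was 0.190 (control) and 0.185 (knockdown), so division raised knockdown averages against control. For the Gini index these medians were 0.837 and 0.855, so division lowered knockdown indices. Both moves went the way already seen, and the 0 is no sign of robustness. The maxima of RPL5, RPL8, RPLP0 and RPS2 did change direction. No paired analysis was possible because each transcript has 1 combined value per condition, and leaving out a replicate was not possible either. The depth behind each value, and with it the precision, is unknown.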
